A study of Rattus norvegicus with 4 samples.

Results

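The comparison described here sets rat mesenchymal stem cells that were senescent and treated with trichostatin A (TSA) against young cells given vehicle only. It was chosen by its 2 columns of deposited counts, and it takes in 2 of the study's 4 libraries, with 1 library on each side. Of 34034 genes listed, 12228 (35.9%) had a total of at least 40 counts over the 4 libraries and were compared. At the edge of that rule, 40 genes had exactly 40 counts and 38 had 39. All 4 libraries came from femur mesenchymal stem cells kept in osteogenic induction medium and collected on day 1, after 24 h with the compounds or vehicle. The young group received vehicle, the untreated senescent group received vehicle, the TSA group was senescent and received TSA, and the remaining group was senescent and received TSA with phenamil. For that library the sample labels give phenamil as the added compound, but the design text has benzyl ether instead. The sources used here do not give the doses, the age and strain of the rats, whether animals were pooled, or how the cells had become senescent.

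The pair differs in cell state and in TSA at once, so a difference between its libraries cannot be assigned to either, and the untreated senescent library is given beside the leading genes to show where it stood. The pair was picked as the most distant of the series, so its distance is a description: Pearson's r over genes of log2(CPM + 1) was 0.983 between these libraries, the lowest of the 6 pairs, and 0.987 to 0.989 in the others. Genes within a library are not independent replicates, and no p is given.

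TSA is a hydroxamic acid that inhibits the zinc-dependent histone deacetylases, enzymes that remove acetyl groups from histones and other proteins, and acetylated chromatin is in general more open to transcription. Mesenchymal stem cells of the bone marrow can form osteoblasts, chondrocytes and adipocytes. On the way to osteoblasts they are driven by BMP and WNT signals and the factors Runx2 and Sp7, lay down collagen I, and later mineralise it. Cells that become senescent leave the cell cycle under CDK inhibitors such as p16 and p21, secrete cytokines and proteases, and form less bone. Phenamil is an amiloride analogue known to raise Trib3 and BMP signalling in osteogenic cultures.

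RNA was read near its 3' end, so a count is a tag per transcript and was not divided by gene length. Totals were 10905230 counts in the young, 11024227 in the untreated senescent, 9873894 in the TSA and 10720172 in the TSA with phenamil library. Levels below are in CPM, the counts of a gene relative to the library's size after TMM scaling (a trimmed mean over genes that sets libraries on 1 scale), whose factors ran from 0.980 to 1.017. A count of 0 allows up to 0.270 to 0.302 CPM (3 counts), depending on the library. The share of counts on mitochondrial messages was 5.47%, 5.66%, 6.02% and 6.85% in the 4 libraries in the order above, and that on ribosomal protein genes was 7.63%, 8.08%, 8.99% and 8.22%. All 9 stromal markers listed were detected in every library, summing to 39285 to 48472 CPM. Of 11 leukocyte markers, Ptprc stood at 0 counts in the first 3 libraries and 3 in the last, and the list summed to 5.23, 5.90, 9.88 and 9.52 CPM. The 7 endothelial markers summed to at most 0.381 CPM. Transcripts of Sp7 and Ibsp, markers of committed osteoblasts, were at 0 in all 4 libraries. In bulk RNA, fewer cells of a type and less RNA per cell cannot be told apart.

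Each ratio below is the TSA library's level over the young library's, with its exact binomial 95% interval in parentheses. That interval covers counting error only: without a second library per group, the spread between cultures is unknown and no test between groups was possible. "Higher" and "lower" mean that the interval excludes no change between these libraries. On that reading 2550 genes (20.9%) were higher and 2491 (20.4%) lower in the TSA library than in the young library. The whole interval lay beyond 1.5-fold for 203 genes (1.66%) above and 184 (1.5%) below, and beyond 2-fold for 44 (0.36%) above and 43 (0.352%) below. Were cultures to vary by a coefficient of variation of 0.1, a value assumed and not measured here, 914 genes would be higher and 994 lower, and 34 and 31 past 2-fold. The median log2 ratio was 0.00, with quartiles at -0.25 and 0.24, and 6411 genes (52.4%) lay within 1.2-fold. The same 2-fold rule took 14 genes (0.114%) above and 19 (0.155%) below for untreated senescent over young, 7 (0.0572%) and 13 (0.106%) for TSA over untreated senescent, and 16 (0.131%) and 12 (0.0981%) for TSA with phenamil over young. These comparisons share libraries with the pair, so their counts are set side by side only. Among 3217 genes with at least 1000 counts in the pair, where counting error is small, the SD of the log2 ratio was 0.28, against 0.19 for untreated senescent over young and 0.18 for TSA over untreated senescent.

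**Figure D1:**
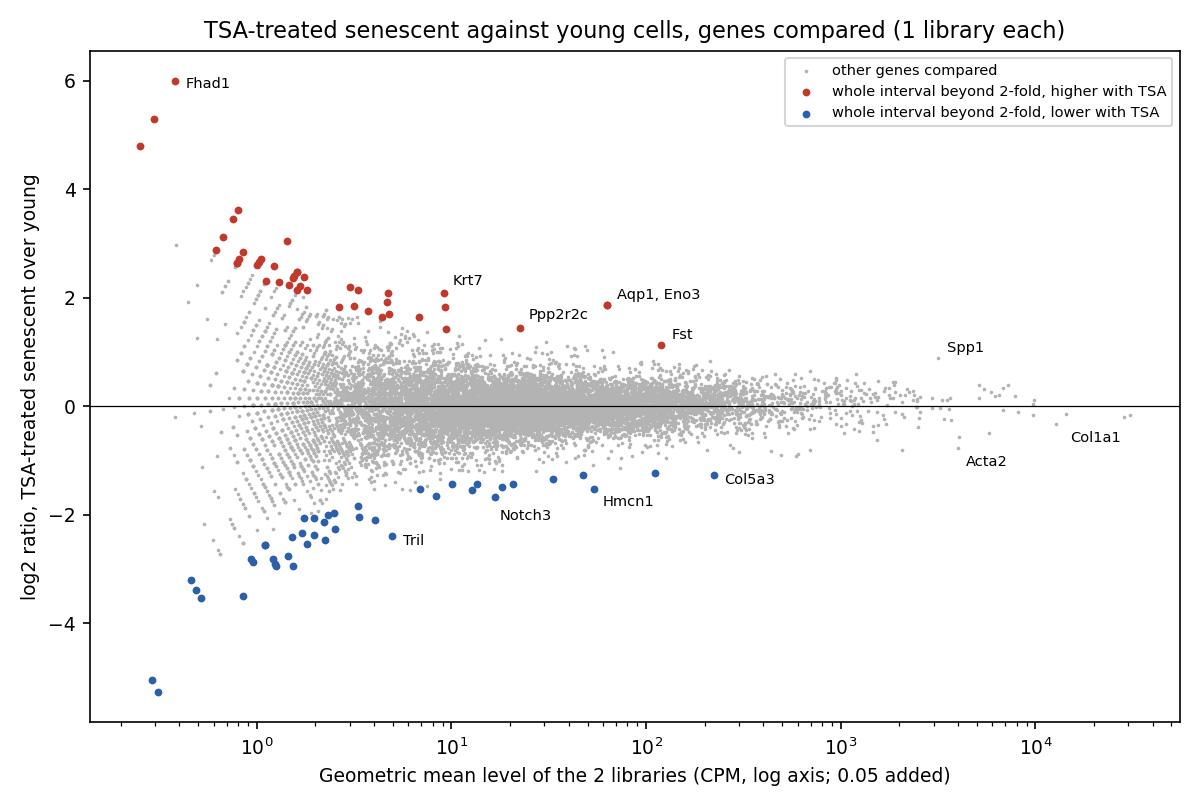
Log2 ratio of the TSA-treated senescent library over the young library (vertical) against the geometric mean level of both in CPM (horizontal, log axis), 1 point per gene compared. Red and blue points are the 44 and 43 genes whose whole 95% counting interval lies beyond 2-fold, Aqp1 and Eno3 share 1 position, and the cloud widens to the left, where counts are few.

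Depth set which genes could pass. Of the 87 genes past 2-fold (0.711%), 60 had fewer than 100 counts in the pair, and 27 had more: 12 higher and 15 lower. The median ratio of the upper to the lower interval bound was 3.72 for genes with 40 to 200 counts in all, 1.70 for 200 to 1000, and 1.12 from 5000 up. The genes named next are the 15 furthest from no change in each direction, by the nearer bound, among those with at least 100 counts in the pair. All 15 lower genes and 12 of the higher ones passed 2-fold.

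Aqp1, which encodes a water channel of the plasma membrane, led the higher genes at 32.9, 80.6, 120.4 and 29.6 CPM in the young, untreated senescent, TSA and TSA with phenamil libraries. The TSA library was highest, the untreated senescent library lay between, and the young library was close to the one with both compounds. Its ratio was 3.66 (3.25 to 4.12). Eno3, the muscle form of the glycolytic enzyme enolase, was likewise highest in the TSA library, at 32.9, 82.3, 120.1 and 41.5 CPM, a ratio of 3.65 (3.24 to 4.11). The 9 skeletal muscle markers summed to 46.7, 57.2, 45.7 and 56.3 CPM in the same order, most of it Acta1 at 40.2, 53.0, 35.5 and 50.1 CPM. Of the other members, Myh4 had 13, 14, 38 and 11 counts and Ckm 12, 2, 18 and 11, both with most in the TSA library. Tnnt3 had 43, 28, 38 and 36 counts, with most in the young library. Of the regulators of muscle precursors, Myod1 had 3, 1, 2 and 1 counts, and Myog and Pax7 were at 0 in both libraries of the pair. The part of muscle-type RNA in the Eno3 value was not tested. The Aqp1 promoter is shown because this gene led the list. It lies at chr4:85812534-85812833 on the plus strand of GRCr8, from RefSeq, covers 250 bases before to 50 after the gene's start, and carries 1 match to the TATA box letters TATAAA, in capitals, which 6.56% of 9856 promoters of compared genes hold on either strand.
Aqp1: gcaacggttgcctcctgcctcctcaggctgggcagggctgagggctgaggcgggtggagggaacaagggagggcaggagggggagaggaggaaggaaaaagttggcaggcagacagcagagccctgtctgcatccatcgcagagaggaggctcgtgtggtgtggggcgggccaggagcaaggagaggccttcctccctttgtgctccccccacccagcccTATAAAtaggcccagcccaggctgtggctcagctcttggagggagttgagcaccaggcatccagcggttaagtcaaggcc

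Epithelial-type genes were among the higher ones. Krt7, a keratin of simple epithelia, stood at 4.42, 13.0, 18.9 and 3.62 CPM in the 4 libraries, and Lamb3, the beta chain of laminin-332, at 4.87, 10.4, 17.4 and 5.90 CPM. Both were lowest in the young or the TSA with phenamil library, and their ratios were 4.27 (3.10 to 5.97) and 3.58 (2.63 to 4.96). The 8 epithelial markers summed to 13.97, 28.96, 38.91 and 15.71 CPM, carried by Krt7 and Krt8. Epcam and Cdh1, which define epithelial cells, were at 0 counts in both libraries of the pair. Galnt3, which adds the first sugar of mucin-type O-glycans, had a ratio of 4.29 (2.74 to 6.96) at 2.25, 5.63, 9.68 and 3.62 CPM.

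Fst, the secreted activin inhibitor follistatin, was the most abundant of the 15 higher genes in the TSA library at 80.7, 124, 176 and 105 CPM, a ratio of 2.18 (2.01 to 2.37). Cxcl16, a membrane-bound chemokine, stood at 2.43, 7.26, 7.76 and 3.90 CPM, with the untreated senescent library near the TSA library, and its ratio was 3.19 (2.03 to 5.14). Rnd1, which loosens cell adhesion, had a ratio of 3.28 (2.13 to 5.18), and Ppp2r2c, a regulatory subunit of protein phosphatase 2A, 2.74 (2.26 to 3.33). The lipid droplet protein Cidea reached 3.17 (2.21 to 4.62), the cardiac and non-muscle nebulette gene Nebl 3.87 (2.48 to 6.24), and Pcbd1, a pterin dehydratase and cofactor of HNF1, 2.72 (2.01 to 3.70). Past 1.5-fold but not past 2-fold were the phospholipase gene Plaat3 at 2.29 (1.95 to 2.701), the immune checkpoint gene Vsir at 2.39 (1.93 to 2.97) and the neuropeptide gene Npy at 3.02 (1.92 to 4.89).

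Among the lower genes, Notch3, a Notch receptor of mural and stromal cells, stood at 29.8, 16.0, 9.38 and 31.0 CPM. The TSA library was the lowest, the young library and the one with both compounds were alike within 1.2-fold, and the ratio of the pair was 0.314 (0.247 to 0.397). Myh11, the smooth muscle myosin heavy chain, was also lowest in the TSA library, at 52.7, 30.5, 20.9 and 47.6 CPM, a ratio of 0.396 (0.336 to 0.464). The Notch3 promoter is shown because this receptor had the lowest ratio of its family. It lies at chr7:11834536-11834835 on the minus strand of GRCr8, from RefSeq, and its capitals mark 4 matches to the GC box letters GGGCGG, the last pair of them overlapping, which 62.4% of promoters hold on either strand.
Notch3: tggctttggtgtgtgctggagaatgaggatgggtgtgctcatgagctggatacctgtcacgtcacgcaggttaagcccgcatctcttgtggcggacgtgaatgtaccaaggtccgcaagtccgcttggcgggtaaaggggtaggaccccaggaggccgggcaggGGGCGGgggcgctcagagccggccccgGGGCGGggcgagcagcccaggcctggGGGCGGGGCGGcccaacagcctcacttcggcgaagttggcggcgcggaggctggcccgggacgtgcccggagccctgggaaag

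Col5a3, a minor fibrillar collagen chain, stood at 347, 205, 144 and 316 CPM, a ratio of 0.414 (0.389 to 0.440). Col12a1, a collagen that sits on fibril surfaces, stood at 72.8, 53.4, 30.4 and 70.3 CPM, a ratio of 0.418 (0.365 to 0.478). Hmcn1 (hemicentin), a very long matrix protein of the immunoglobulin family, had 91.6, 49.6, 31.7 and 73.9 CPM, a ratio of 0.346 (0.304 to 0.393). In these 3 genes the young library was highest and the untreated senescent library lay between it and the TSA library. Crispld2, a secreted cysteine-rich protein, had a ratio of 0.428 (0.392 to 0.467), and Dpt (dermatopontin), which binds decorin and collagen fibrils, 0.370 (0.284 to 0.477).

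Tril, an accessory protein of Toll-like receptors, had the smallest ratio of the 15, 0.186 (0.111 to 0.297). At 11.4, 2.18, 2.12 and 4.48 CPM it was as low in the untreated senescent as in the TSA library. Cryba4, a crystallin, stood at 8.38, 3.99, 1.92 and 9.71 CPM and a ratio of 0.228 (0.132 to 0.377), and here both the untreated senescent and the TSA library were low. Vipr2, a receptor of vasoactive intestinal peptide, had 0.318 (0.224 to 0.443), and Trerf1, a transcriptional regulator, 0.347 (0.237 to 0.498). The ubiquitin ligase gene Rnf122 stood at 0.355 (0.283 to 0.443), the kinesin gene Kif26b at 0.343 (0.261 to 0.447), the paralemmin gene Palm2 at 0.370 (0.299 to 0.454) and Olfm2, of the olfactomedin family, at 0.369 (0.271 to 0.496).

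**Figure D2:**
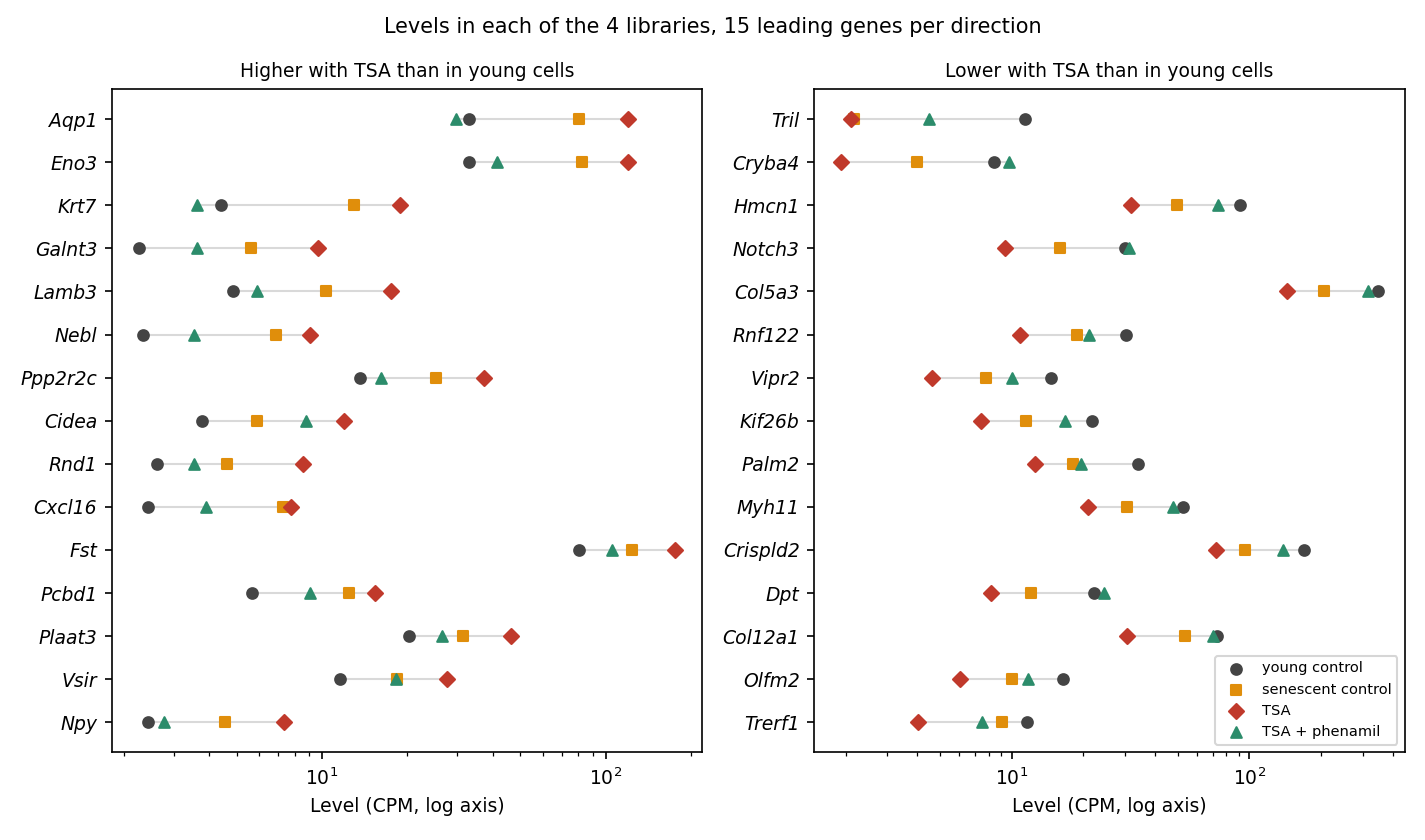
Levels in CPM (log axis) of the 15 leading higher and 15 leading lower genes in the young, untreated senescent, TSA and TSA with phenamil libraries, 1 point per library. The TSA point is the highest of the 4 in all 15 higher genes and the lowest in all 15 lower genes, with the untreated senescent library at neither end in any of the 30.

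The order of the libraries was alike over both lists, which were chosen on the pair itself. At the end opposite to the TSA library stood the young library in 13 of the 15 higher genes and 12 of the 15 lower ones, and the TSA with phenamil library in the other 2 and 3. Over the 15 higher genes the median ratio was 3.19 for the pair, 2.13 for untreated senescent over young, 1.48 for TSA over untreated senescent and 1.31 for TSA with phenamil over young. Over the 15 lower genes these medians were 0.355, 0.547, 0.639 and 0.807.

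Abundant genes differed by smaller ratios. The largest gain in level was that of S100a6, a small calcium-binding protein, at 6302, 7399.8, 8302 and 5629 CPM and a ratio of 1.32 (1.304 to 1.33). Spp1 (osteopontin), a phosphoprotein of bone matrix and a cytokine, followed at 2333, 4194, 4316 and 2828 CPM. Both senescent libraries without phenamil were high, the young one was lowest, and the ratio was 1.85 (1.82 to 1.88). The other 4 of the 6 largest gains were those of S100a4 at 1.27 (1.26 to 1.28), the fibronectin gene Fn1 at 1.25 (1.24 to 1.27), and the mitochondrial messages ND3 at 1.31 (1.297 to 1.33) and CYTB at 1.197 (1.18 to 1.21).

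The largest loss was that of Col1a1, the main chain of collagen I, at 30460.1, 29864, 26684 and 33576 CPM, a ratio of 0.876 (0.872 to 0.881). Col1a2 and Col3a1 were lower too, at ratios of 0.803 (0.797 to 0.809) and 0.677 (0.668 to 0.687), with the TSA library lowest and Col3a1 highest in the library with both compounds. Acta2, smooth muscle alpha-actin, stood at 5204, 4508, 3070.0 and 5062 CPM, and its ratio of 0.590 (0.582 to 0.598) was the smallest of these 6. The mitochondrial ribosomal RNAs mt-Rnr2 and mt-Rnr1 had ratios of 0.897 (0.893 to 0.902) and 0.711 (0.703 to 0.719). As a share of counts, mitochondrial ribosomal RNA made up 3.99%, 4.27%, 3.41% and 4.07% of the 4 libraries, lowest in the TSA library.

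Some genes were at 0 in 1 library of the pair and at 15 counts or more in the other. Fhad1 had 0 counts in the young library, 32 in the untreated senescent, 28 in the TSA and 6 in the TSA with phenamil library, and its interval began at 7.94-fold higher. The uncharacterised locus LOC120095833 had 0, 19, 17 and 11 counts, and its interval began at 4.61-fold higher. In the other direction, LOC102556098 had 21, 18, 0 and 13 counts, a ratio of at most 0.215 by its interval, and Nfe2l3, a transcription factor related to NRF2, had 18, 10, 0 and 13, a ratio of at most 0.254. Fhad1, LOC120095833 and LOC102556098 were the 3 genes whose whole interval lay beyond 4-fold, 0.0164% of genes above and 0.00818% below.

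A further gene is named after its values were seen. Vdr, the vitamin D receptor that acts in osteoblasts, had 58, 44, 9 and 22 counts in the 4 libraries. The TSA library was the lowest and both vehicle libraries were high, and the ratio was 0.174 (0.0756 to 0.353).

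The span of a gene, from its start to its end in the RefSeq GRCr8 annotation, moved with the ratio. This build differs from that of the counts, so the spans serve as lengths only; 12007 genes (98.2%) had one. Over 5 equal groups of genes from the shortest spans (median 3.89 kb) to the longest (122.9 kb), the median log2 ratio was 0.09, 0.05, 0.03, -0.03 and -0.12. The share of genes higher went from 29.9% to 11.8% and the share lower from 12.8% to 33.2%. Genes past 1.5-fold above had a median span of 18.1 kb and those below 48.2 kb, against 23.6 kb over all. In 3199 genes with at least 1000 counts in the pair, Spearman's rho of span and log2 ratio across genes was -0.40. It was -0.25 for untreated senescent over young, -0.36 for TSA over untreated senescent and -0.17 for TSA with phenamil over young, comparisons that share libraries. Over all 12007 genes with a span, rho was weaker, at -0.18 for the pair and -0.09, -0.14 and -0.07 for the other comparisons in the same order. Median spans differed between lists, 107 kb for collagens and 3.13 kb for ribosomal protein genes among those below. For some lists the median is therefore also given after the median of all genes of like span, in 20 bins, was subtracted from each member. Among lists given without it below, this value was -0.13 for immediate early genes, 0.16 for chondrogenic genes and 0.19 for bone mineral and osteoblast matrix. The part of span in any result was not tested beyond that subtraction, which was added after the data were seen.

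**Figure D3:**
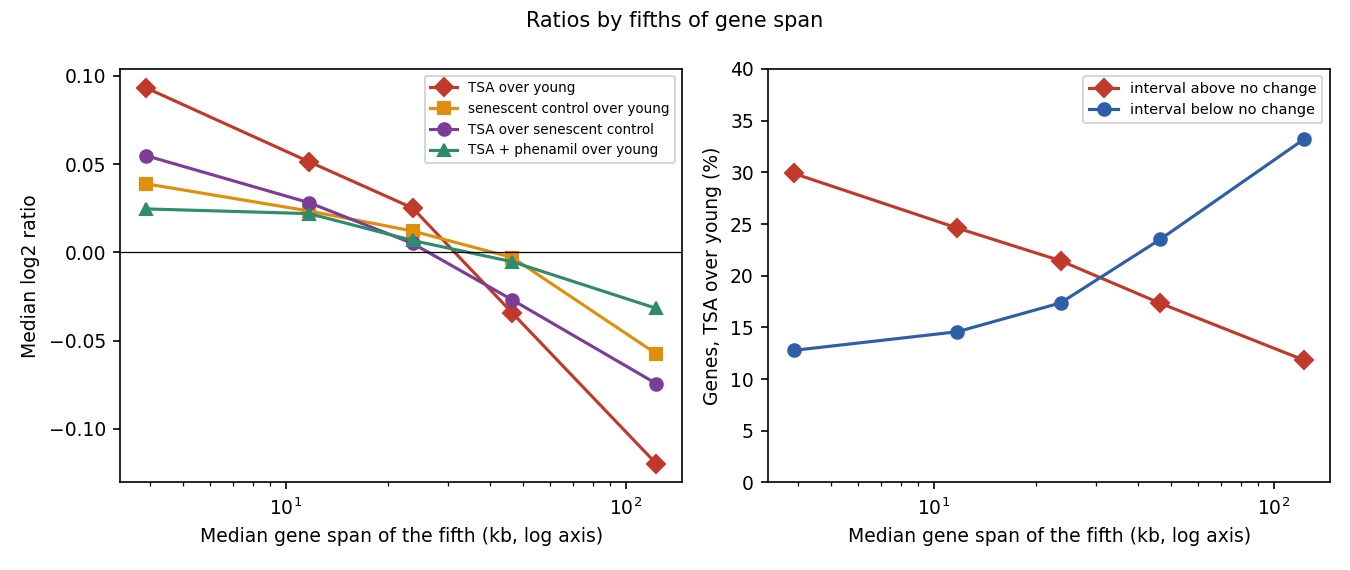
Median log2 ratio of each of 5 equal groups of genes by span, plotted against the group's median span in kb (log axis), for the TSA library over young and 3 other pairs of libraries. The line of TSA over young goes from 0.09 in the shortest to -0.12 in the longest group, and the other pairs run in the same direction over a smaller range.

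Genes were also read by pathway. There were 38 lists with 813 distinct genes; 708 were compared, 100 were under the minimum of 40 counts and 5 symbols were not found. Each list is given by how many compared members were higher and lower, against 20.9% and 20.4% of all genes, and by its median log2 ratio, against 0.00 over all genes. The share of genes called rose with depth. Of 2578 genes with 40 to 200 counts in all, 306 were higher and 346 lower. From 5000 counts up, 644 of 1404 were higher and 418 lower, so more calls come with abundance in any list of abundant genes.

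**Figure D4:**
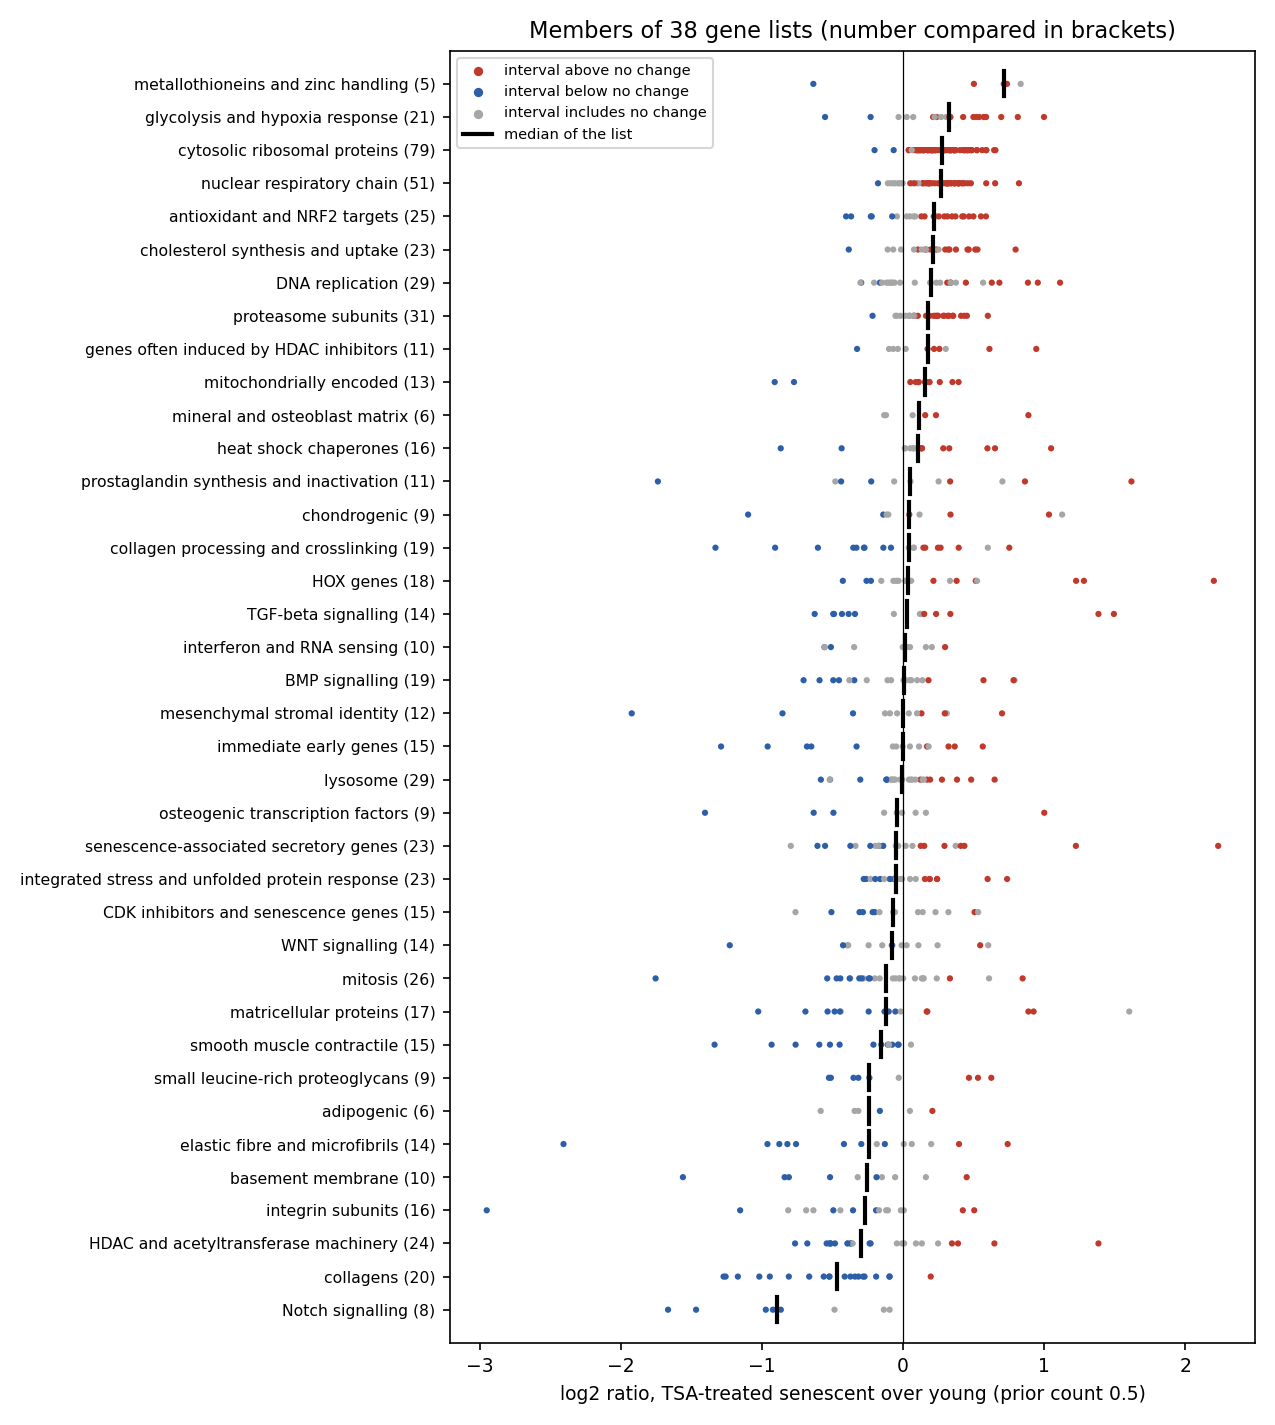
Log2 ratio, TSA-treated senescent over young, of the compared members of the 38 lists, 1 point per gene, with a black bar at each list's median. Red points have an interval above no change, blue points below it, and grey points an interval that includes it. By median, Notch signalling lies lowest at -0.89 and metallothioneins and zinc handling highest at 0.71.

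Collagens, the fibres of the matrix, were lower almost throughout. Of 20 compared, 19 were lower, 6 of these past 1.5-fold and 2 past 2-fold, and 1 was higher, with a median of -0.47 (-0.39 with span subtracted). The medians were -0.32 for untreated senescent over young, -0.15 for TSA over untreated senescent and -0.06 for TSA with phenamil over young. Beside Col5a3 and Col12a1, Col27a1, a fibrillar collagen of cartilage, stood at 0.520 (0.468 to 0.576). The 1 higher member was Col8a2 at 1.15 (1.09 to 1.21), a network-forming collagen. The enzymes that process and crosslink collagen split instead. Of 19, 6 were higher and 9 lower, a median of 0.04: the crosslinking oxidases Lox and Loxl3 were higher at 1.31 (1.29 to 1.34) and 1.68 (1.52 to 1.87), Loxl2 was lower at 0.795 (0.773 to 0.818) and the interval of Loxl1, 1.05 (0.989 to 1.12), includes no change. The propeptide-cleaving proteases Adamts2 and Bmp1 were lower at 0.532 (0.408 to 0.689) and 0.658 (0.560 to 0.771), and the collagen chaperone Serpinh1 at 0.783 (0.766 to 0.8005).

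Elastic fibre and microfibril genes were lower in 8 of 14 and higher in 2, a median of -0.24 (-0.22 with span subtracted). Fbn1 (fibrillin), the backbone of microfibrils, stood at 817, 577, 445 and 714 CPM and a ratio of 0.545 (0.525 to 0.565). Fbln2, a fibulin, had a ratio of 0.567 (0.543 to 0.591), and the scarce microfibril gene Mfap2 had 38, 33, 6 and 19 counts, a ratio of 0.177 (0.0610 to 0.421). The latent TGF-beta binding protein Ltbp1 was higher at 1.67 (1.44 to 1.94).

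The small leucine-rich proteoglycans, which sit on collagen fibrils, were lower in 5 of 9 and higher in 3, a median of -0.24. Dcn (decorin), which also binds TGF-beta, had 23.5, 21.7, 16.3 and 24.7 CPM and a ratio of 0.694 (0.567 to 0.848), with the TSA library lowest. Lum and Ogn stood at 0.803 (0.754 to 0.855) and 0.784 (0.756 to 0.812). Prelp, Fmod and Omd were higher at 1.54 (1.36 to 1.75), 1.44 (1.32 to 1.59) and 1.38 (1.23 to 1.56).

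Among the matricellular proteins, which regulate cells from within the matrix, 10 of 17 were lower and 4 higher, a median of -0.12. Postn (periostin) had 161, 142, 99.6 and 178 CPM and a ratio of 0.619 (0.572 to 0.669), Spon1 0.490 (0.423 to 0.567) and Ccn5 0.714 (0.671 to 0.761). Sparc (osteonectin) was close to even at 0.913 (0.906 to 0.919). Smoc2, a calcium-binding matrix protein, was higher at 1.90 (1.66 to 2.17), beside Spp1.

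Basement membrane genes were lower in 5 of 10 and higher in 1, a median of -0.25. The laminin alpha chains Lama2 and Lama4 stood at 0.330 (0.163 to 0.625) and 0.559 (0.5097 to 0.612) and Nid1 (nidogen) at 0.571 (0.536 to 0.607), while its relative Nid2 was higher at 1.37 (1.22 to 1.53). Integrins, the receptors that hold cells to the matrix, were lower in 5 of 16 and higher in 2, a median of -0.27, which came to -0.12 with a minimum of 200 counts. Itga8, the alpha chain that pairs with Itgb1 as a nephronectin receptor, had a ratio of 0.447 (0.331 to 0.599), and Itgb1 itself, at 1650.0, 1564, 1290.3 and 1541 CPM, 0.782 (0.765 to 0.7999). Itga4 had 47, 22, 5 and 28 counts and a ratio of 0.119 (0.0369 to 0.298). Itgb5 was higher at 1.42 (1.36 to 1.47).

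Smooth muscle contractile genes, many of them targets of serum response factor, were lower in 12 of 15 and higher in none, a median of -0.15. Beside Acta2 and Myh11, Actg2, the enteric actin, had 23.9, 15.3, 12.5 and 27.2 CPM and a ratio of 0.523 (0.419 to 0.6501). The abundant members Tagln and Myl9 were lower by little, at 0.975 (0.960 to 0.991) and 0.928 (0.893 to 0.964).

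Genes of bone mineral and osteoblast matrix were mostly too scarce to compare. Only 6 of 13 passed the minimum; Spp1, the pyrophosphate-making enzyme Enpp1 at 1.11 (1.07 to 1.16) and the phosphate carrier Slc20a1 at 1.18 (1.09 to 1.27) were higher and none was lower, a median of 0.11. Alpl, the alkaline phosphatase that frees phosphate for mineral, had 17.5, 19.2, 15.9 and 21.6 CPM and a ratio of 0.911 (0.733 to 1.13), an interval that includes no change. Of 9 osteogenic transcription factors compared out of 14, 3 were lower and 1 higher, a median of -0.05. Runx2, the master regulator of osteoblasts, had 26.8, 19.6, 17.2 and 23.6 CPM. The young library was highest and the TSA library lowest, and the ratio was 0.644 (0.530 to 0.780). Sox4 stood at 0.710 (0.675 to 0.748). Fosl1, an AP-1 subunit, was higher at 2.01 (1.48 to 2.74).

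BMP signalling showed no common direction: of 19 genes, 3 were higher and 5 lower, a median of 0.00. The ligands diverged. Bmp2 had 37.5, 25.9, 23.0 and 37.1 CPM and a ratio of 0.613 (0.519 to 0.722), with both senescent libraries without phenamil low. Bmp4 had 207, 277, 306 and 352 CPM and a ratio of 1.48 (1.41 to 1.57), with the young library lowest. Bmp6 stood at 0.662 (0.516 to 0.847) and the receptor Bmpr2 at 0.787 (0.728 to 0.8504). Id1, a direct BMP target that holds back differentiation, had 71.9, 88.0, 124 and 73.2 CPM and a ratio of 1.72 (1.57 to 1.88). Another target, Id3, was higher at 1.13 (1.07 to 1.203), while the inhibitory Smad6 stood at 0.926 (0.808 to 1.06), an interval that includes no change. Trib3, a pseudokinase that promotes degradation of Smurf1, had 192, 176, 158 and 158 CPM and a ratio of 0.824 (0.772 to 0.880).

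TGF-beta signalling genes split as well, with 5 of 14 higher and 6 lower, a median of 0.03. The target Tgfbi, a secreted adhesion protein, had 1.26, 2.996, 3.63 and 1.33 CPM and a ratio of 2.88 (1.51 to 5.77), and the co-receptor Tgfbr3 (betaglycan) 2.63 (1.80 to 3.91). The ligands Tgfb2 and Tgfb3 were lower at 0.648 (0.634 to 0.662) and 0.710 (0.679 to 0.741), and Inhba, the activin subunit, at 0.712 (0.680 to 0.746). In WNT signalling 1 of 14 was higher and 3 lower, a median of -0.08. Wnt2, with 27, 6, 10 and 21 counts in the 4 libraries, stood at 0.414 (0.179 to 0.883). The receptors Fzd2 and Fzd1 stood at 0.744 (0.675 to 0.820) and 1.46 (1.27 to 1.68). The intracellular effector Ctnnb1 (beta-catenin) had a ratio of 0.946 (0.905 to 0.989).

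Notch signalling, in which ligands on 1 cell activate receptors on the next and turn on Hes and Hey repressors, had the lowest median of the lists. Of 13 genes 8 were compared, and 5 were lower and none higher, a median of -0.89 (-0.96 with span subtracted). The medians were -0.45 for untreated senescent over young, -0.40 for TSA over untreated senescent and -0.17 for TSA with phenamil over young. Of the receptors, Notch1 stood at 0.359 (0.250 to 0.508), Notch3 at 0.314 (0.247 to 0.397), and Notch2, at 0.910 (0.821 to 1.01), had an interval that includes no change. The ligand Jag1 had 116, 95.2, 61.2 and 117 CPM and a ratio of 0.527 (0.478 to 0.581). The targets Hey1 and Hey2, named here after their values were seen, stood at 0.547 (0.421 to 0.707) and 0.508 (0.400 to 0.643), and the interval of Hes1, 0.936 (0.867 to 1.01), includes no change.

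Stromal identity genes were balanced, with 3 of 12 higher and 3 lower, a median of 0.00. Nt5e (CD73), an ecto-enzyme that makes adenosine, was higher at 1.63 (1.27 to 2.09), as were Mcam at 1.23 (1.11 to 1.36) and Cd44 at 1.09 (1.02 to 1.17). Pdgfrb, the growth factor receptor of stromal and mural cells, was lower at 46.5, 38.8, 25.7 and 46.9 CPM, a ratio of 0.553 (0.474 to 0.643). Lepr, the leptin receptor that marks marrow stroma, had 44, 24, 10 and 43 counts and a ratio of 0.254 (0.114 to 0.513). Of 6 adipogenic genes compared, 1 was higher and 1 lower, a median of -0.24, which came to -0.06 with no count minimum. Cebpb stood at 1.15 (1.02 to 1.31), the lipid droplet coat Plin2 at 0.892 (0.801 to 0.993), and Pparg, the master regulator of fat cells, at 0.787 (0.599 to 1.03). Of 9 chondrogenic genes 3 were higher and 2 lower, a median of 0.04. Sox9, the cartilage regulator, stood at 1.26 (1.11 to 1.44), Hapln1 at 2.05 (1.81 to 2.32) and Cilp at 0.464 (0.319 to 0.666).

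Genes tied to senescence did not move as a block. Of 15 CDK inhibitor and senescence genes 1 was higher and 5 lower, a median of -0.07. Cdkn2b (p15), which blocks CDK4 and CDK6, had 99.7, 129, 142 and 105 CPM and a ratio of 1.42 (1.31 to 1.54), with the young library lowest. Cdkn1a (p21) had 237, 235, 225 and 203 CPM and a ratio of 0.953 (0.8999 to 1.01). Cdkn2a (p16 and p19Arf) stood at 1.25 (0.889 to 1.76) and Lmnb1, the nuclear lamin that is often lost in senescence, at 0.890 (0.766 to 1.03); the intervals of these 3 genes include no change. Rb1, the retinoblastoma protein gene, was lower at 0.702 (0.547 to 0.898), as were Hmgb1 at 0.821 (0.763 to 0.883) and Lmna at 0.861 (0.832 to 0.891).

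Of 23 senescence-associated secretory genes, 7 were higher and 6 lower, a median of -0.05. Plau, the urokinase, had 7, 11, 31 and 17 counts and a ratio of 4.95 (2.14 to 13.3), and was the only list gene past 2-fold above. Areg, an EGF receptor ligand, stood at 2.35 (1.59 to 3.54) and Serpine2 at 1.33 (1.27 to 1.39). Vegfa, the angiogenic factor, was lower at 48.7, 47.8, 33.2 and 40.5 CPM, a ratio of 0.681 (0.592 to 0.783). Il6, at 0.788 (0.481 to 1.28), and Mmp3, at 0.965 (0.922 to 1.01), had intervals that include no change.

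Mitosis genes leaned lower, 9 of 26 against 2 higher, a median of -0.12. Mki67, the proliferation marker, had 38.6, 35.4, 27.8 and 32.7 CPM, highest in the young and lowest in the TSA library, a ratio of 0.721 (0.618 to 0.841). Anln (anillin), a scaffold of the contractile ring, stood at 0.280 (0.0935 to 0.702), the kinase Plk1 at 0.689 (0.593 to 0.799) and Aurkb at 1.80 (1.301 to 2.52). Anln was scarce, with 24, 18, 6 and 15 counts in the 4 libraries. DNA replication genes leaned the other way, with 9 of 29 higher and 2 lower, a median of 0.20 (0.14 with span subtracted). Ccne2 (cyclin E2) stood at 2.17 (1.65 to 2.87), the clamp loader subunit Rfc5 at 1.85 (1.33 to 2.59) and thymidylate synthase Tyms at 1.55 (1.29 to 1.86), while Mcm2 was lower at 0.814 (0.680 to 0.972).

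Genes of the acetylation machinery leaned lower. Of 24 deacetylase and acetyltransferase genes, 12 were lower and 4 higher, a median of -0.30 (-0.24 with span subtracted). Ep300 and Crebbp, the paired acetyltransferases of enhancers, stood at 0.588 (0.489 to 0.704) and 0.701 (0.652 to 0.753), and Hdac5, a class IIa deacetylase, at 0.624 (0.509 to 0.763). Hdac1, a class I deacetylase and a target of TSA, had 87.7, 99.8, 112 and 93.6 CPM, lowest in the young and highest in the TSA library, a ratio of 1.27 (1.17 to 1.39). Hdac11 was higher at 2.72 (1.07 to 7.75), with only 7, 11, 17 and 20 counts in the 4 libraries. Of 11 genes often induced by deacetylase inhibitors, 5 were higher and 1 lower, a median of 0.17 that came to 0.05 with span subtracted. Their median was 0.02 for untreated senescent over young, 0.07 for TSA over untreated senescent and 0.08 for TSA with phenamil over young. H1f0, the linker histone known for such induction, had 118, 126, 138 and 129 CPM and a ratio of 1.16 (1.08 to 1.26). Klf4 and Gadd45a stood at 1.93 (1.54 to 2.42) and 1.53 (1.43 to 1.64), and Gadd45b was lower at 0.798 (0.714 to 0.890). Klf4 had 11.4, 16.6, 21.9 and 18.7 CPM and Gadd45a 125, 161, 191 and 168 CPM. For both, the untreated senescent library lay between the young and the TSA library. Of 39 HOX genes, which record position along the body, 18 were compared, with 6 higher and 3 lower and a median of 0.04. Hoxb4 and Hoxb7 were higher at 2.38 (1.28 to 4.61) and 2.48 (1.28 to 5.04). Both were scarce, with 16, 17, 34 and 35 counts of Hoxb4 and 14, 26, 31 and 20 of Hoxb7. Hoxa9 was lower at 0.835 (0.703 to 0.992).

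Energy metabolism genes were mostly higher. Of 21 glycolysis and hypoxia genes, 13 were higher and 2 lower, a median of 0.33 (0.30 with span subtracted). The medians were 0.27 for untreated senescent over young, 0.10 for TSA over untreated senescent and 0.09 for TSA with phenamil over young. Ldha, which turns pyruvate into lactate, had 70.6, 103, 124 and 87.2 CPM, lowest in the young and highest in the TSA library, a ratio of 1.76 (1.605 to 1.92). Slc16a3, the lactate exporter, stood at 1.999 (1.71 to 2.34) and Pgk1 at 1.45 (1.39 to 1.52). The lower members were Vegfa and the neuronal enolase Eno2, at 0.852 (0.818 to 0.889), the latter in contrast to Eno3. Of 51 nuclear genes of the respiratory chain, 39 were higher and 1 lower, a median of 0.27 (0.20 with span subtracted). The ATP synthase subunit Atp5pf stood at 1.57 (1.48 to 1.67), the cytochrome oxidase subunit Cox7b at 1.504 (1.42 to 1.59) and Ndufa4 at 1.395 (1.33 to 1.47), while Ndufv2 was lower at 0.884 (0.819 to 0.954). Of the 13 mitochondrially encoded messages 11 were higher, a median of 0.15, and ATP8 and ND6 were lower at 0.532 (0.513 to 0.552) and 0.585 (0.505 to 0.676). ATP8 overlaps ATP6, so its counts are uncertain. ND6 lies on the other strand, and its counts may be uncertain too, as whether the counting kept strands apart was not checked here.

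Cholesterol synthesis and uptake genes, under the control of SREBP2, were higher in 13 of 23 and lower in 1, a median of 0.21 (0.18 with span subtracted). The medians were 0.26 for untreated senescent over young, 0.06 for TSA over untreated senescent and 0.05 for TSA with phenamil over young. The sterol isomerase Ebp stood at 1.74 (1.44 to 2.11), Idi1 at 1.43 (1.28 to 1.59) and Fdps at 1.38 (1.28 to 1.49). Hmgcs1, an early step of the pathway, stood at 1.296 (1.19 to 1.42), and the lower member, Mvk (mevalonate kinase), at 0.765 (0.592 to 0.985).

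Genes that make and turn over protein were higher as well. Of 79 cytosolic ribosomal protein genes, 76 were higher and 2 lower, a median of 0.27 (0.17 with span subtracted), and none was past 2-fold. Rpl32, Rpl4 and Rpl36a stood at 1.57 (1.46 to 1.70), 1.56 (1.51 to 1.62) and 1.504 (1.45 to 1.56), and the lower members were Rpl36 at 0.869 (0.817 to 0.925) and Rplp1 at 0.955 (0.928 to 0.982). These genes have many near-identical processed copies, so single values are uncertain. Of 31 proteasome subunits, 20 were higher and 1 lower, a median of 0.18 (0.19 with span subtracted). Psma3 of the core stood at 1.52 (1.35 to 1.71), the regulatory ATPase Psmc4 at 1.37 (1.22 to 1.53) and Psmd6 at 0.861 (0.808 to 0.916). Lysosomal genes split, with 7 of 29 higher and 5 lower and a median of -0.01. Naglu, which degrades heparan sulfate, stood at 1.57 (1.26 to 1.96), and Npc1, the cholesterol exporter, at 0.667 (0.531 to 0.834).

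Metallothioneins are small cysteine-rich proteins that bind zinc and copper. Their list, which also holds genes of zinc handling, had the highest median, 0.71 (0.59 with span subtracted). Of its 5 compared genes 3 were higher and 1 lower, and with so few members the median is the log2 ratio of Mt2A itself. Mt1 had 18.6, 15.6, 30.9 and 22.1 CPM and a ratio of 1.67 (1.39 to 1.998), and Mt2A had 24.3, 23.4, 39.9 and 22.9 CPM and a ratio of 1.64 (1.402 to 1.92). Both were higher in the TSA library than in the untreated senescent library and in the one with both compounds, and Mt1 and Mt2A are close copies whose reads may be hard to tell apart. Mtf1, the zinc sensor that turns them on, stood at 1.42 (1.08 to 1.86), and the zinc importer Slc39a10 at 0.642 (0.489 to 0.839). Their promoters are shown because Mtf1 acts through metal response elements, whose core is TGCGCNC or TGCACNC. Capitals mark these letters on either strand. There were 6 matches in Mt1, at chr19:10832926-10833225, and 4 in Mt2A, at chr19:10838659-10838958, both on the minus strand of GRCr8 and from RefSeq.
Mt1: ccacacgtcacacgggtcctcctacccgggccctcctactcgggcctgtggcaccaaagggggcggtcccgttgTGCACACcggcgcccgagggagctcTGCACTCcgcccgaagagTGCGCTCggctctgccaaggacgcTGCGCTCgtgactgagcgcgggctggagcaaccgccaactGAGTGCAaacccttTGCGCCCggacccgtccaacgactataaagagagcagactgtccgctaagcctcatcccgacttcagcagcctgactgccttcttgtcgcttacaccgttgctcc
Mt2A: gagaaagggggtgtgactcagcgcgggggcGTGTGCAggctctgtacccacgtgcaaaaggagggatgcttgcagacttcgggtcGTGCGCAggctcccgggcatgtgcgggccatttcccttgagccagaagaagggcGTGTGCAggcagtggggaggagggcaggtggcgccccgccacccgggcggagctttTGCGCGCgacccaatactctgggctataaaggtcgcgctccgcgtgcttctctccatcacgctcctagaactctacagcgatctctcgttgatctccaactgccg
A core this short is common: 36.8% of 9856 promoters held at least 1 match on either strand.

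Antioxidant and NRF2 target genes were higher in 14 of 25 and lower in 5, a median of 0.22 (0.16 with span subtracted). Nqo1, a quinone reductase, had 169.9, 188, 255 and 175 CPM, lowest in the young and highest in the TSA library, a ratio of 1.502 (1.41 to 1.595). Cat (catalase) stood at 1.47 (1.29 to 1.67) and Txn1 at 1.35 (1.31 to 1.39), and Hmox1 (heme oxygenase) at 1.16 (1.101 to 1.23). The cystine carrier Slc7a11 and the glutathione enzyme Gclc were lower at 0.755 (0.636 to 0.895) and 0.774 (0.679 to 0.882). Of 16 heat shock genes, 8 were higher and 2 lower, a median of 0.11 that came to 0.03 with span subtracted. The constitutive chaperone Hspa8 stood at 1.57 (1.402 to 1.76), Hspe1 at 1.51 (1.43 to 1.597) and Hspa4l at 2.08 (1.37 to 3.21). The lower members were the stress-induced Hspa1a at 0.547 (0.444 to 0.672) and Hspa1b at 0.739 (0.663 to 0.824), near-identical copies whose reads cannot be divided with certainty.

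Integrated stress and unfolded protein response genes split, with 7 of 23 higher and 6 lower and a median of -0.05. The endoplasmic reticulum proteins Creld2, Sdf2l1 and Calr were higher at 1.67 (1.41 to 1.98), 1.51 (1.300 to 1.77) and 1.18 (1.15 to 1.22), while Slc3a2 and Sesn2 were lower at 0.872 (0.830 to 0.916) and 0.834 (0.772 to 0.901). Of 15 immediate early genes, which answer to growth factors within minutes, 4 were higher and 5 lower, a median of 0.00. Nr4a1 stood at 0.512 (0.364 to 0.712), Egr3 at 0.622 (0.471 to 0.818), Egr1 at 0.796 (0.748 to 0.846) and the mRNA-decay factor Zfp36 at 1.48 (1.08 to 2.03). Nr4a1 had 10.6, 4.63, 5.44 and 6.48 CPM and Egr3 13.6, 6.26, 8.47 and 10.95 CPM. Both were lowest in the untreated senescent library. Of 23 interferon genes listed, 21 were found and 10 passed the count minimum, with 1 higher and 2 lower and a median of 0.02. Ifit2 stood at 0.677 (0.459 to 0.989), with 6.85, 3.18, 4.64 and 6.48 CPM, lowest in the untreated senescent library. Irf1, the other lower gene, had 131, 103, 82 and 114 counts in the 4 libraries. In prostaglandin handling 3 of 11 were higher and 3 lower, a median of 0.05. The cyclooxygenases Ptgs1 and Ptgs2 were higher at 3.12 (1.82 to 5.58) and 1.82 (1.56 to 2.12), with 19, 33, 53 and 21 counts of Ptgs1 in the 4 libraries. The prostaglandin transporter Slco2a1 was lower at 1.80, 0.908, 0.504 and 2.19 CPM, a ratio of 0.280 (0.0820 to 0.768).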

How the data were processed

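RNA of 4 cultures was sequenced as 3' mRNA libraries (QuantSeq FWD, single reads of 100 bp), per the labels' protocols. The submitters' processing notes name mRatBN7.2 as a genome build, and HTSeq 2.0.2 and STAR 2.7.10b as tools. The values used are the deposited raw counts per gene, whole numbers made by the authors. The authors also deposited log2 normalized values for each library, by a method not given in their headers. These were used only as an alternative for the counts past 2-fold, the list medians and the ratios of named genes.

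From the counts, genes with a total of at least 40 were kept, and library sizes were corrected with TMM factors from edgeR 4.0.16 (R 4.3.3). Ratios of scaled counts have exact Clopper-Pearson 95% intervals (scipy 1.17.1). List medians use log2 ratios with a prior count of 0.5, and floors use 3 counts. Intervals and floors cover counting error only, and no molecular identifiers were recorded in the sources used here. The edgeR quasi-likelihood test planned for counts could not be fitted, since without replicates no residual degrees of freedom remain.

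The text names, in each direction, the 15 genes with the interval bound furthest from no change among those with at least 100 counts in the pair, and up to 3 genes per list chosen the same way. It also names the 6 largest gains and losses in CPM, genes at 0 in 1 library with at least 15 counts in the other, and a fixed set of reference genes of osteogenesis, senescence and TSA response. A few genes that these rules select are not reported here. The comparison, the lists and these rules were chosen with earlier results of these data known. Promoters and spans came from RefSeq tables of GRCr8, matched by symbol or gene ID: 9856 compared genes (80.6%) had a promoter and 12007 (98.2%) a span. Alternatives changed the scaling, the count minimum, the size rule, the depth and the assumed spread between cultures.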

Additional observations from a re-analysis of the deposited data

How the results depend on the processing

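No paired analysis was possible because each group holds 1 library, and for the same reason no replicate could be left out. Under DESeq2 size factors, total counts, scaling without mitochondrial and ribosomal protein genes, thinning to the smallest total, and a spread between cultures set at a coefficient of variation (CV) of 0.1, the counts past 2-fold stayed within 1.5 times of 44 higher and 43 lower. They became 91 and 76 with no count minimum, 12 and 15 with a minimum of 200 counts, 22 and 20 with a CV of 0.2, 203 and 184 at 1.5-fold, 2 and 1 at 4-fold, and 359 and 393 on the ratio alone, from the counts or from the deposited log2 values. The genes whose interval excluded no change became 914 higher and 994 lower with a CV of 0.1, and 285 and 310 with 0.2. The libraries give no measure of the true spread between cultures. No named gene with counts in both libraries whose interval excluded no change went to the other side of no change. Of 38 list medians, that of the integrins came to -0.12 with a minimum of 200 counts and that of the adipogenic genes to -0.06 with no minimum. The median of the mitochondrial messages moved to 0.14 with total counts and 0.13 without mitochondrial and ribosomal protein genes in the scaling, and with span subtracted the collagens moved to -0.39 and the ribosomal proteins to 0.17. The sign of the median changed under some setting in 8 lists, all with a main median of at most 0.0523 in size, and in none of the other 30. The interferon median reached -0.17 and the prostaglandin median ranged up to 0.25. Cdkn1a and Mmp3 became lower with total counts and without mitochondrial and ribosomal protein genes in the scaling, Pparg became lower after thinning, and Cebpb, Col9a1, Hdac11, Itga7, Kif23, Ltbp4 and Plin2 lost their call under at least 1 setting. Low counts limited the other end: genes with 40 to 200 counts needed several-fold ratios to pass.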
